A study of Mus musculus with 12 samples.

Results

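Mki67 and Top2a, 2 of the 22520 mouse gene IDs counted in this ribosome profiling study, were followed through all 12 of its libraries. They were found by their Ensembl IDs, ENSMUSG00000031004 and ENSMUSG00000020914, each of which had 1 row in every library. Ribosome profiling counts the mRNA fragments that ribosomes shield from nuclease, so a level here combines how much of an mRNA there was with how heavily it was translated. Both genes were selected on these same footprint counts, from earlier results, and which comparison drew attention to them is not recorded. Their levels and differences are therefore given as a description with errors and with no p-value.

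The cells were of the mouse B cell lymphoma line 19PP. Per the labels, this line grew out of a Rag2-/-γC-/- mouse that had received bone marrow carrying Cγ1-Cre together with Myc and P110* alleles behind a floxed stop, and the cultured cells were its subline 19DN, which had lost the GFP and hCD2 reporters. All groups share this background. The cells carried either WT RPL12 or RPL12 with serine 38 changed to alanine (S38A) or to aspartate (S38D). RPL12 (uL11) belongs to the large subunit of the ribosome. Each genotype was labelled as asynchronous or as mitotic after nocodazole, a drug that stops microtubule assembly, given at 100 ng/mL for 8 hr with a wash and 10 min of recovery before harvest. Cycloheximide at 100 µg/mL was recorded for every library. Each of the 6 groups comprised 2 libraries. The labels do not say whether those came from separate cultures, nor how many clones stand for a genotype, so the spread between libraries may be technical and a genotype difference is one between the cells so labelled. Effects of the cell cycle state and of the drug cannot be told apart. B cell identity was not checked against marker genes, because the other gene IDs could not be paired with symbols here.

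Libraries held 258354 to 505500 coding reads, and 6692 gene IDs passed the filter on low counts, Mki67 and Top2a among them. Levels are given in CPM, read counts scaled to a common library total and then by the TMM method. A level in such bulk samples cannot tell fewer cells that express a gene from less mRNA or translation per cell.

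Mki67 encodes Ki-67, the standard marker of proliferating cells. It is a large nuclear protein that coats chromosomes in mitosis, keeps them dispersed and helps rebuild the nucleus afterwards. It is found in cycling cells and is lost from resting ones. Top2a encodes DNA topoisomerase II alpha, which passes one DNA double strand through a break in another. This untangles replicated chromosomes before they separate and makes the enzyme a target of drugs such as etoposide and doxorubicin. Transcripts of both genes are known to accumulate late in the cell cycle, and CCAAT boxes and cell cycle homology regions (CHR, usually TTTGAA) are elements that promoters of such genes commonly carry.

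In GRCm38, the assembly also called mm10, Mki67 lies on the minus strand of chromosome 7 (chr7:135689784-135716450) and Top2a on the minus strand of chromosome 11 (chr11:98992947-99024199). Their upstream sequences are shown because they hold such elements. The stretches are from the RefSeq promoter table for GRCm38.p6, 179 bases for Mki67 (chr7:135716451-135716629) and 240 bases for Top2a (chr11:99024200-99024439). Both stop short of the gene's outermost transcript model in the RefSeq annotation, so neither holds transcribed sequence of that gene. Capitals mark matches on either strand to the CCAAT box, to the CHR form TTTGAA, to its variant TTTAAA or to the E2F-like motif TTNGCGC, and no matches overlap.
Mki67 upstream: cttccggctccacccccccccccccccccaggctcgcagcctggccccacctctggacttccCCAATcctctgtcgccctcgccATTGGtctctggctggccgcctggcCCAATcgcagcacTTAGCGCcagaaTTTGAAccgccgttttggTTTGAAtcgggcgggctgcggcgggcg
Top2a upstream: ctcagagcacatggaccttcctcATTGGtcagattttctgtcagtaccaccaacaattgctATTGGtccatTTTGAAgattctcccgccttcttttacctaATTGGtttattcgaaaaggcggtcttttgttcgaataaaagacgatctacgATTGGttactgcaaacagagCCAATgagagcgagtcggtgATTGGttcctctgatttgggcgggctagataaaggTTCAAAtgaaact

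The Mki67 stretch held 3 CCAAT matches, and 24.8% of the 32851 promoter windows in the table held at least 1 over the same 179 bases. The Top2a stretch held 6 CCAAT matches, where 33.0% of windows held at least 1 over 240 bases. TTTGAA occurred at 2 places in each gene, against 12.6% of windows with a match over 179 bases and 15.5% over 240. In Mki67 both lie on the forward strand, starting 116 and 98 bases upstream of the RefSeq start. In Top2a one starts 179 bases upstream, and the other, on the reverse strand, spans bases 23 to 18 upstream. TTNGCGC matched 1 time in Mki67, where 3.39% of windows had a match, and 0 times in Top2a, where 4.94% did. TTTAAA had 0 matches in either stretch, against 9.24% and 11.8% of windows. Promoter activity was not measured in these libraries.

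Mki67 varied far more over the 6 groups than Top2a, and its order of groups differed. Asynchronous WT libraries had 328 and 428 CPM of Mki67, and mitotic WT libraries 577 and 591 CPM. In S38A cells the asynchronous libraries had 3373 and 2184 CPM and the mitotic ones 978 and 1001 CPM. In S38D cells the asynchronous libraries had 1018 and 820 CPM and the mitotic ones 389 and 463 CPM. Asynchronous S38A libraries therefore had the highest and asynchronous WT libraries the lowest group mean, 2778 ± 841 and 378 ± 70.4 CPM (SD, n = 2 each), a ratio of 7.35. Asynchronous S38A cells stood clear of the next group. Mitotic S38A and asynchronous S38D libraries, next in order, overlapped (990 ± 16.3 and 919 ± 140.1 CPM). Mitotic WT libraries lay below both and above mitotic S38D libraries (584 ± 9.87 and 426 ± 52.2 CPM). The latter overlapped with asynchronous WT libraries at the bottom of the order (SD, n = 2 each).

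The asynchronous S38A group is also where replicates of Mki67 were furthest apart, by 1.54-fold. The 95% counting intervals of its libraries, 3191 to 3562 and 2022 to 2355 CPM, did not overlap, on 1293 and 675 reads. The intervals of the asynchronous S38D libraries did not overlap either, and those of the other 4 groups did. These intervals cover counting error only. Even the lower S38A library was above every library of the other 5 groups.

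Top2a followed the labelled state in every genotype. WT libraries had 1517 and 1363 CPM when asynchronous and 661 and 744 CPM when mitotic. S38A libraries had 2353 and 2290 CPM when asynchronous and 1280 and 1274 CPM when mitotic. S38D libraries had 1479 and 1652 CPM when asynchronous and 870 and 898 CPM when mitotic. From the top, the order was asynchronous S38A (2322 ± 44.2 CPM), asynchronous S38D (1566 ± 122 CPM), asynchronous WT (1440 ± 109 CPM), mitotic S38A (1277 ± 3.79 CPM), mitotic S38D (884 ± 19.8 CPM) and mitotic WT (702 ± 58.7 CPM; SD, n = 2 each). Asynchronous S38D and WT libraries were the only neighbours in this order that overlapped. The highest mean was 3.31 times the lowest, and in each of the 6 groups the counting intervals of the replicates overlapped.

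**Figure D1:**
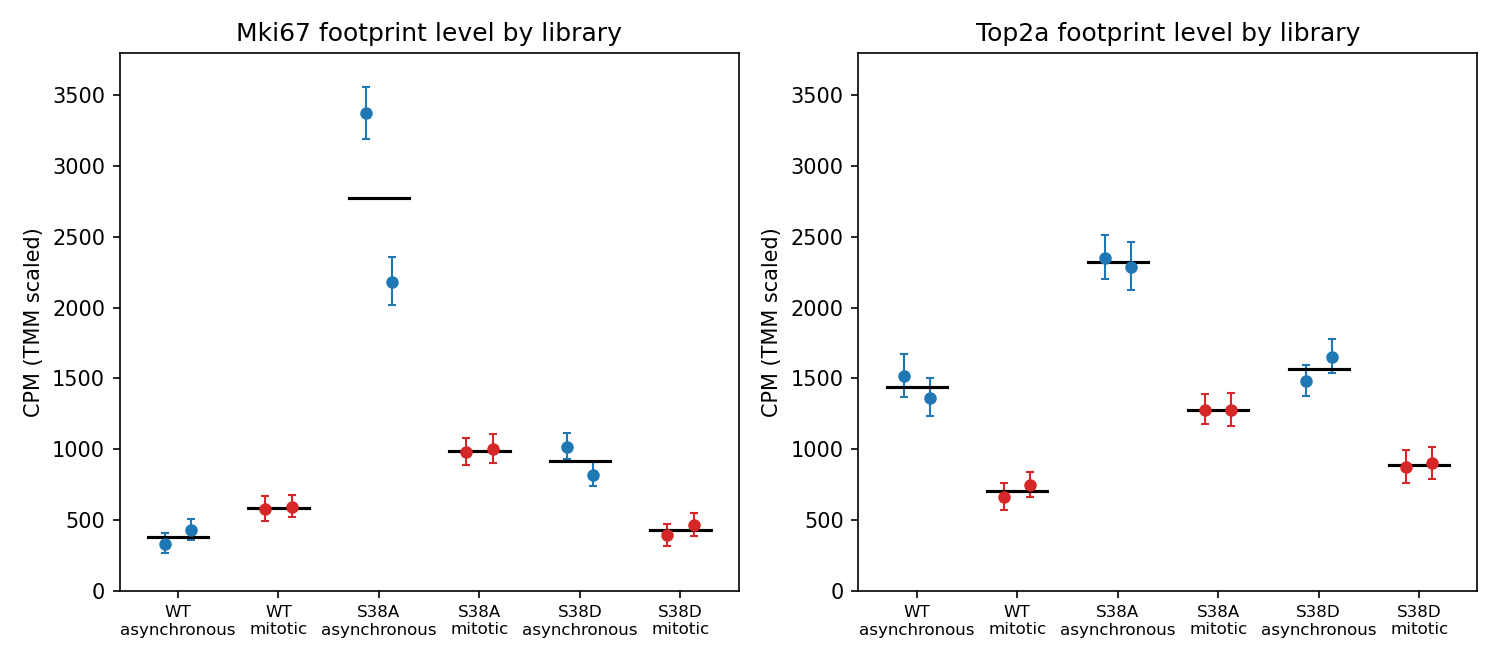
Footprint level of Mki67 (left) and Top2a (right) in CPM for each library, by genotype and state; points are libraries with 95% counting intervals, black lines are group means (n = 2), blue is asynchronous and red mitotic. Mki67 peaks in asynchronous S38A cells at 3373 and 2184 CPM, while Top2a is lower in mitotic than in asynchronous libraries of each genotype.

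The change from asynchronous to mitotic libraries was compared within each genotype. For Top2a it had 1 direction and nearly 1 size throughout. The fitted log2 difference (edgeR) was -1.03 ± 0.13 for WT cells, -0.86 ± 0.12 for S38A and -0.82 ± 0.13 for S38D (SE), that is 2.04-fold, 1.82-fold and 1.77-fold lower in mitotic libraries. Both mitotic libraries were below both asynchronous ones in each genotype, which also held for 27.5%, 29.8% and 30.3% of all 6692 genes tested in WT, S38A and S38D cells. Library composition also moved with the state. Reads outside counted features made up 18.0 to 25.8% of uniquely aligned reads in asynchronous and 25.6 to 34.6% in mitotic libraries, and multi-mapped alignments took 62.3 to 68.3% and 65.8 to 73.0% of the tables' totals. The part of this shift in the changes of Mki67 and Top2a was not tested. The median log2 difference over all genes tested was between -0.029 and -0.0037 in the 3 genotypes.

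For Mki67 the direction depended on the genotype. In WT cells both mitotic libraries were above both asynchronous ones, as 29% of all genes tested were, with a log2 difference of 0.62 ± 0.17 (SE, 1.54-fold higher). Here 1127 of the 6692 genes had a higher value. Fits that left out 1 library at a time gave 0.41 to 0.84. In S38A cells Mki67 was 2.81-fold lower in mitotic libraries (log2 difference -1.49 ± 0.14, SE), and 64 of the 6692 genes had a lower value. In S38D cells it was 2.15-fold lower (-1.11 ± 0.16, SE), and 439 genes had a lower value. In S38A and S38D cells the libraries of the 2 states did not overlap. The SE rests on a spread drawn partly from all genes and need not show the replicate spread of Mki67. DESeq2 gave SE of 0.22, 0.19 and 0.21 for its change in WT, S38A and S38D cells. Averaged over the 3 genotypes, the log2 difference was -0.66 ± 0.09 for Mki67 and -0.91 ± 0.07 for Top2a (SE), so the average for Mki67 hides the opposite sign in WT cells.

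**Figure D2:**
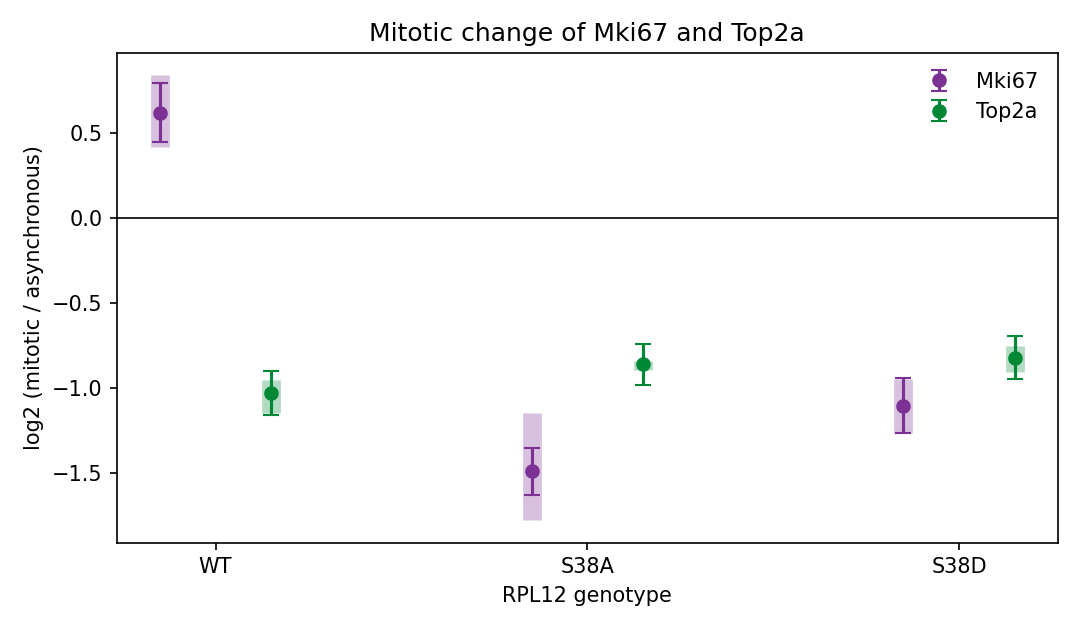
Log2 ratio of mitotic to asynchronous footprints (vertical axis) for Mki67 (purple) and Top2a (green) in each RPL12 genotype; points are fitted values, bars are 1 SE, and shaded bands span the fits that leave out 1 of the 12 libraries. Mki67 is at 0.62 for WT, -1.49 for S38A and -1.11 for S38D cells, while Top2a stays between -1.03 and -0.82.

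The difference of the mitotic change between genotypes was taken from the same fit. For Mki67 the change in S38A cells minus that in WT cells was -2.11 ± 0.22 on the log2 scale (SE), and 23 of the 6692 genes had a lower value. For S38D minus WT it was -1.72 ± 0.24 (SE), with 67 genes lower. These values use the same WT libraries, whose asynchronous pair held only 84 and 129 reads of Mki67. DESeq2 gave SE of 0.29 for S38A minus WT and 0.30 for S38D minus WT. For S38D minus S38A the value was 0.39 ± 0.21 (SE). It shrank to 0.06 ± 0.22 (SE) without asynchronous S38A replicate 1, the library with the most Mki67. Without that library S38A minus WT was -1.73 ± 0.23 (SE). For Top2a the same 3 differences were 0.17 ± 0.18, 0.21 ± 0.18 and 0.04 ± 0.18 (SE), each about as large as its error or smaller.

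Other genes that mark G2 and M phase were taken, by gene ID, from the marker pairs shipped with the scran package. The list holds genes that lead more pairs than they trail for G2 and M and trail more than they lead for G1 and S, and 67 of its 74 genes were tested. Mki67 itself leads 14 and trails 8 of the G2 and M pairs but also leads 9 and trails 4 of the S phase pairs, so the list leaves it out, and Top2a is in 0 pairs. Of the 67, 19, 21 and 24 were lower in mitotic WT, S38A and S38D libraries (28.4%, 31.3% and 35.8%; adjusted p under 0.05, edgeR), where 9.26%, 9.59% and 10.9% of all genes tested were. In the same order 4, 1 and 2 were higher, where 9.13%, 9.03% and 10.6% of all genes tested were. Their median log2 differences were -0.33, -0.36 and -0.35. DESeq2 called 13, 11 and 11 lower and 1, 1 and 2 higher. The count for WT cells was 8 without asynchronous replicate 2, 9 without mitotic replicate 1 and 12 without mitotic replicate 2, and leaving out any 1 WT library left 1 or 2 higher. It was 12 for S38A cells without either asynchronous or mitotic replicate 1, and for S38D cells 14 without mitotic replicate 1 and 13 without mitotic replicate 2, which also left 1 higher. These counts and medians describe the list and are not a test of it. Shares of all genes tested were taken only from the main edgeR fit of all libraries, at an adjusted p under 0.05. Counts from DESeq2, other edgeR settings or leave-one-out fits, or at an unadjusted p, here and below, thus stand without such a share. They cannot show whether the list exceeds it.

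Lower levels were also frequent in a list for S phase, and not in a list for G1, both made by the same rule. In mitotic WT, S38A and S38D libraries 9.26%, 9.59% and 10.9% of all genes tested were lower and 9.13%, 9.03% and 10.6% higher. Of 81 tested G1 genes, 6, 6 and 3 were lower (7.41%, 7.41% and 3.70%) and 10, 12 and 7 higher (12.3%, 14.8% and 8.64%). Of 74 tested S phase genes, 15, 15 and 18 were lower (20.3%, 20.3% and 24.3%) and 4, 4 and 6 higher (edgeR, adjusted p under 0.05). DESeq2 called 6, 5 and 10 of them lower and 1, 0 and 3 higher, with 3 higher in S38A cells at an unadjusted p under 0.05. For S38A cells edgeR gave 9 lower and 3 higher without a filter, and 13 lower and 2 higher with a replicate block. Lower calls numbered 6 to 9 in WT cells without any 1 WT library. In S38A cells there were 4 without asynchronous or mitotic replicate 1, 8 without mitotic replicate 2 and 9 without S38D mitotic replicate 2. In S38D cells there were 10 and 9 without mitotic replicates 1 and 2.

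In WT cells 61 of the 67 listed genes had a lower mitotic change than Mki67, in S38A cells 0 did, and in S38D cells 8 did. Top2a lay lower than 59 of the 67 listed genes in both WT and S38A cells, and lower than 52 in S38D cells. When the WT change was subtracted from the S38A change, the list spanned -1.10 to 0.80 with a median of -0.08, and Mki67 was below all 67. Mki67 was chosen from these data, so its place beside the list is only a description. Of the 67, 0 passed the threshold in either direction for S38A minus WT (edgeR and DESeq2 alike), where 0.149% of all genes tested were called higher and 0.299% lower. At an unadjusted p under 0.05, edgeR had 4 higher and 2 lower, and DESeq2 had 2 and 1. For S38D minus WT the list spanned -1.04 to 1.01 and Mki67 was again below all 67, with 0 listed genes called by either tool, against 0% of all genes tested called higher and 0.0598% lower. There edgeR had 1 higher and 3 lower at an unadjusted p under 0.05, and DESeq2 had 0 and 0. No share of all genes tested was taken at an unadjusted p, so the unadjusted counts cannot show whether the list exceeds it. So few of all genes tested were called in either difference that 0 listed genes does not set the list apart.

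**Figure D3:**
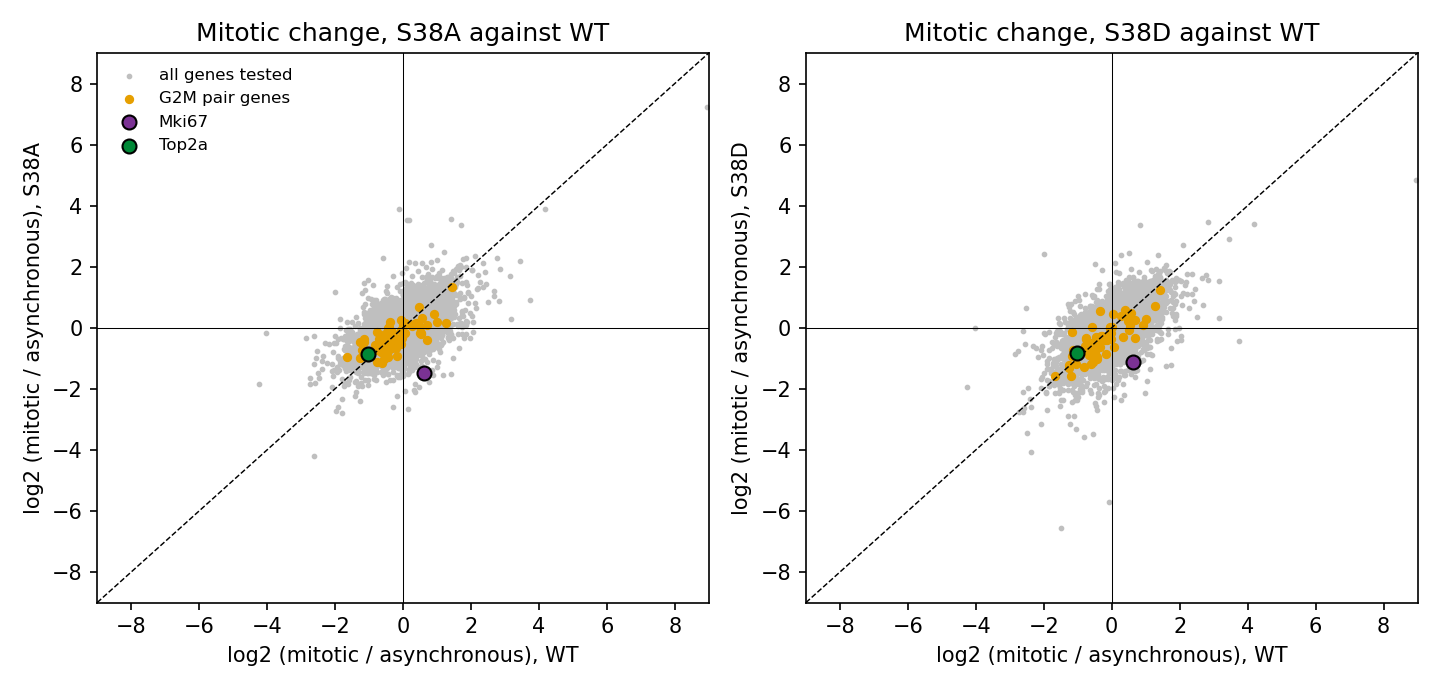
Log2 ratio of mitotic to asynchronous footprints in S38A (left) and S38D (right) cells, vertical axis, against that in WT cells, horizontal axis, for the 6692 genes tested (grey), the 67 G2 and M pair genes (orange), Mki67 (purple) and Top2a (green); the dashed line marks equal change. Top2a lies near the dashed line among the orange points, and Mki67 lies in the lower right part of each panel, away from them.

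Genotypes were set against each other next, with the state held the same. Among asynchronous cells Mki67 was 7.32-fold higher in S38A than in WT cells (log2 difference 2.87 ± 0.16, SE), and 4 of the 6692 genes had a larger value. Without the more Mki67-rich S38A library the log2 difference was 2.49 ± 0.17 (SE). Asynchronous S38D cells were intermediate, 2.42-fold above WT (1.27 ± 0.16, SE) and 3.03-fold below S38A (-1.60 ± 0.14, SE). The libraries did not overlap in any of these 3 comparisons. Such separation in the same direction held for 25.9% of genes in S38A over WT, 22.6% in S38D over WT and 25.1% in S38D under S38A. The list of G2 and M pair genes had a median of 0.31 and a highest value of 1.42 in asynchronous S38A minus WT cells, with 13 of 67 higher and 1 lower (edgeR, adjusted p under 0.05), against 5.86% and 3.47% of all genes tested. Without asynchronous S38A replicate 1 there were 7 higher, and without asynchronous WT replicate 2 there were 8. The S phase list had similar counts, with 13 of 74 higher (17.6%), 1 lower and a median of 0.20, and DESeq2 called 5 of its genes higher and 1 lower. An edgeR fit of only the groups compared gave 7 higher and 1 lower. The G1 list had 10 of 81 higher (12.3%), 3 lower and a median of 0.07 (edgeR). Higher calls were thus not limited to the G2 and M and S phase lists. Leaving out any 1 of the 4 libraries compared gave 5 to 8 higher S phase genes, and leaving out S38A mitotic replicate 1 gave 8.

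Top2a differed less between genotypes in asynchronous cells. It was 1.61-fold higher in S38A than in WT cells (log2 difference 0.69 ± 0.12, SE), with separate libraries. The S38D and WT libraries overlapped (0.12 ± 0.12, SE), and S38D cells were 1.48-fold below S38A cells (-0.57 ± 0.12, SE).

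Among mitotic cells the distances for Mki67 were smaller. S38A libraries were 1.69-fold above WT (log2 difference 0.76 ± 0.15, SE), and S38D libraries were below WT (-0.45 ± 0.17, SE), the reverse of their order when asynchronous. Top2a was higher than in mitotic WT cells in both mutants, by 0.86 ± 0.13 in S38A and 0.33 ± 0.14 in S38D cells (SE, log2 scale). S38D was below S38A for both genes, by 2.32-fold for Mki67 and 1.44-fold for Top2a. Libraries did not overlap in any of these 6 values. In the same comparisons 27.9% of all genes tested separated upward in S38A over WT, 21.5% upward and 21.8% downward in S38D against WT, and 29.2% downward in S38D against S38A.

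The reads of Mki67 per read of Top2a within a library need no scaling between libraries. This ratio compares libraries and not the levels of the 2 genes, since it is not corrected for length. In WT libraries it was 0.216 and 0.314 when asynchronous and 0.873 and 0.794 when mitotic. In S38A libraries it was 1.43 and 0.953 when asynchronous and 0.765 and 0.786 when mitotic. In S38D libraries it was 0.688 and 0.496 when asynchronous and 0.447 and 0.516 when mitotic. The ratio was thus higher in mitotic than in asynchronous WT cells by 3.19-fold, lower by 1.51-fold in S38A cells, and overlapped between the states in S38D cells. S38A cells were 4.48-fold above WT cells when asynchronous and 1.07-fold below them when mitotic. The mitotic libraries separated only at 0.786 against 0.794, and their counting intervals all overlapped. These folds are between geometric group means.

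**Figure D4:**
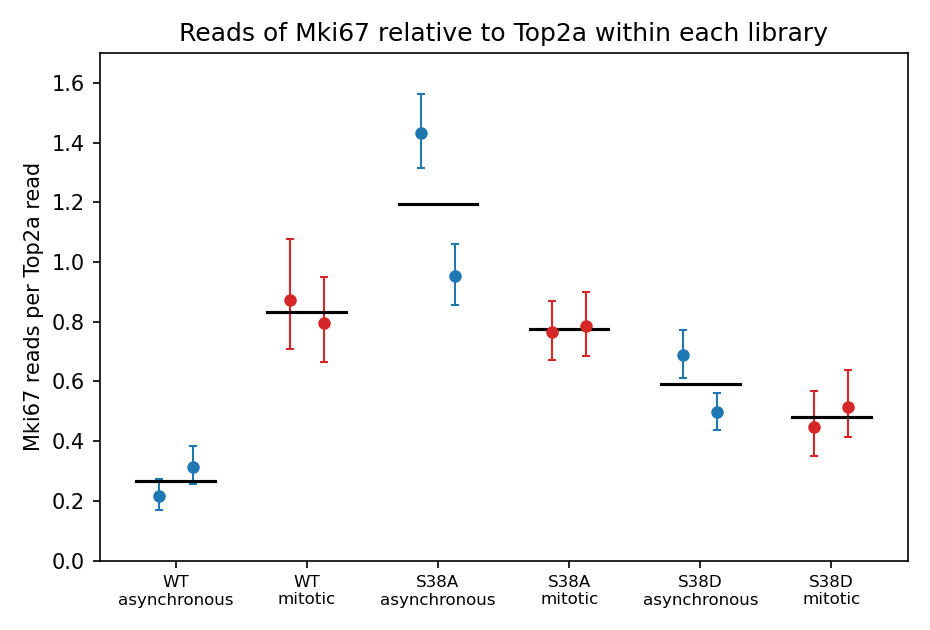
Reads of Mki67 per read of Top2a (vertical axis) in each library, by genotype and state; points are libraries with 95% counting intervals, black lines are group means (n = 2), blue is asynchronous and red mitotic. Asynchronous WT libraries are lowest at 0.216 and 0.314, and asynchronous S38A libraries are highest at 1.43 and 0.953.

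Across the 12 libraries the log2 CPM of the 2 genes correlated at r = 0.69 (Spearman's rho = 0.49), a description over points that share groups of 2 and a scaling. Within the 6 asynchronous libraries r was 0.90 (rho = 0.71) and within the 6 mitotic ones 0.71 (rho = 0.49). Among 6514 genes with a mean of at least 20 CPM, 388 were more like Mki67 than Top2a was, and 936 were more like Top2a than Mki67 was. The pattern most like that of Mki67 was that of ENSMUSG00000026083.12 (r = 0.948 over 12 libraries). This gene had 364 ± 34.7 CPM in asynchronous S38A and 45.8 ± 15.0 CPM in asynchronous WT libraries, but 50.2 ± 4.96 CPM in mitotic WT libraries, close to the asynchronous level (SD, n = 2 each). The pattern most like that of Top2a was that of ENSMUSG00000040549.16 (r = 0.988), with 310 ± 7.22 CPM in WT cells when asynchronous and 128 ± 5.70 CPM when mitotic, and 579 ± 96.0 and 292 ± 10.2 CPM in S38A cells (SD, n = 2 each). Over the 6 group means the closest gene was another one for each.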

How the data were processed

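The authors deposited 1 table of raw read counts per library, for versioned Ensembl gene IDs plus 5 summary rows, which entered neither library totals nor fits. Per the submitters' processing notes the build was mm10 and the tools included STAR 2.5.3a and HTSeq 0.9.1, whose roles are not stated. Use of strand and collapsing of identical reads are unstated, so overlapping or antisense genes may share reads.

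Counts were fitted in R 4.3.3 with edgeR 4.0.16 (TMM, filterByExpr with a minimum count of 10, quasi-likelihood, 6 groups in 1 model, Benjamini-Hochberg threshold 0.05 over all 6692 genes), checked on simulated data. SE is the log2 difference over the square root of F. The reference tables matched 0 Ensembl IDs, so symbol lists, marker checks and levels per length were not used, and genes other than Mki67 and Top2a are named only as the ID most correlated (Pearson, log2 CPM, prior count 2) with each. G2M, S and G1 lists from scran 1.30.0 replaced them after the data were seen. Members and lists were chosen with earlier results of these data known. Alternatives were DESeq2 1.42.0, other scalings and filters, a replicate block, smaller fits and leaving out each library.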

Additional observations from a re-analysis of the deposited data

Results flagged for a closer look

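Mki67 moved in opposite directions in different genotypes. Both mitotic WT libraries were above both asynchronous ones (log2 difference 0.62), while both mitotic libraries were below both asynchronous ones in S38A (-1.49) and in S38D cells (-1.11). In WT cells the counting intervals of asynchronous replicate 2 and mitotic replicate 1 overlapped. The difference itself was not tested, because the gene was chosen from these data. Taken singly, these separations held for 29%, 29.8% and 30.3% of all genes tested in WT, S38A and S38D cells. How many genes separated upward in WT and downward in a mutant was not counted.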

How the results depend on the processing

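Each log2 difference of Mki67 and Top2a was recomputed with library totals, DESeq2 size factors, the DESeq2 Wald test, no filter, a mean CPM of at least 10, the replicate block and only the groups compared. All 180 of these values stayed within the pooled replicate SD of the gene (0.24 for Mki67, 0.08 for Top2a, log2 scale), and 1 changed sign, the S38D minus S38A mitotic change of Top2a, which is near 0. No pairing by replicate number was seen: deviations of same-numbered libraries correlated at -0.13 to 0.05 over 15 pairs of groups. Much of these deviations is counting error, so the check cannot exclude a pairing. With the replicate block, the mitotic change of Mki67 was 0.62, -1.48 and -1.10 in WT, S38A and S38D cells.

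Leaving out 1 library at a time moved 21 of 312 values by more than that SD. For Mki67 the ranges were -1.78 to -1.15 for the change in S38A, -2.39 to -1.73 for S38A minus WT and 0.063 to 0.66 for S38D minus S38A. They were 2.49 to 3.16 for asynchronous S38A minus WT and -1.87 to -1.24 for asynchronous S38D minus S38A. For the mitotic change of Top2a they were -1.15 to -0.96 in WT and -0.91 to -0.76 in S38D, and, between genotypes, 0.11 to 0.31 (S38A minus WT), 0.13 to 0.36 (S38D minus WT) and -0.045 to 0.11 (S38D minus S38A). For its genotype differences they were 0.59 to 0.74 (asynchronous S38A minus WT), 0.036 to 0.21 (asynchronous S38D minus WT), 0.80 to 0.98 (mitotic S38A minus WT) and 0.29 to 0.48 (mitotic S38D minus WT). The cause was not tested. The gene of closest pattern was the same with a prior count of 0.5. Depth limits Mki67 most in WT asynchronous libraries.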
